A study of Homo sapiens with 3 samples.

Results

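The cancer-linked long non-coding RNAs examined here were MALAT1, NEAT1, HULC, UCA1, PVT1, GAS5, HOTAIR, SNHG1, SNHG5 and DANCR, 10 genes chosen by name and looked up by symbol among the 16149 genes listed in at least 1 of 3 libraries. The symbols of 8 genes were found. DANCR was listed under its older symbol KIAA0114 and was taken by its Entrez gene number 57291, which made 9 listed genes, and HULC was listed in no library under its symbol or its number. The messenger RNA sequencing compared 3 cultured human hepatocellular carcinoma cell lines, all labelled HCCLM3 and grown in DMEM, with 1 library each. The parent was labelled as having low metastatic ability, subclone 1 as having a higher ability specific to the lung, and subclone 2 as having an ability to reach both the lung and the celiac lymph node. The methods of the study, unlike the label, ascribe a high metastatic potential to the parental line. According to them, this line expressed red fluorescent protein, and the subclones were monoclones grown from single cells of metastases in nude mice. Each subclone is therefore 1 clone, and the labels do not say which of the named clones was sequenced. The question was how the level of each RNA differed between the parent and its organ-directed subclones.

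Long non-coding RNAs are transcripts without a long open reading frame, many of which act in the nucleus through the proteins they bind. MALAT1 gathers in nuclear speckles beside splicing factors, and NEAT1 is the scaffold of paraspeckles. GAS5, SNHG1, SNHG5 and DANCR host small nucleolar RNAs (snoRNAs) in their introns, so that 1 primary transcript gives both a spliced RNA and guides of ribosomal RNA modification. PVT1 lies beside MYC, HOTAIR runs antisense within the HOXC cluster, and UCA1 and HULC were named for urothelial and liver carcinoma.

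The deposited values were RPKM, that is reads divided by gene length and by sequencing depth, which allow levels to be compared between genes. The RPKM of a gene stood in ratios of whole reads between libraries, and these gave totals of 4488825 to 4725150 reads per library. With 1 library per cell line no test between cell lines was possible, and no p-value is given. Intervals are exact 95% intervals of the read counts (Poisson for a level, Clopper-Pearson for a fold), which cover counting error only and not the spread between cultures. Before a log2 ratio was taken, 0.1 was added to each RPKM, and the background was made up of the 11370 genes whose mean RPKM reached 1. Both subclones were compared with the same parental library. Of 10 liver markers, 8 to 9 were above 0 per library, and GPC3 was listed in none. The keratin KRT8 was at an RPKM of 1614, 1641 and 1742 in the parent, subclone 1 and subclone 2, and albumin (ALB) at 2.46, 49.5 and 68.8. APOA1 had 1, 3 and 2 reads, and TTR and SERPINA1 were at or near 0. The summed RPKM of 7 fibroblast markers was 4.80, 2.75 and 0.586, and that of 5 endothelial markers was 5.11, 11.9 and 7.60. The sum of 5 leukocyte markers was 76.6, 113 and 101, almost all of it CD68, while the defining leukocyte marker PTPRC was at 0.0836, 0 and 0. The part of these markers in the results below was not tested.

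The sequences shown first are the 3′ elements of MALAT1, the RNA with most reads, and the start sites of the snoRNA hosts. MALAT1 has no poly(A) tail, and its 3′ end is held by a triple helix in which 2 U-rich motifs pair with an A-rich tract. The stretch of transcript MALAT1-202 (GENCODE 29) that holds these elements lies on the plus strand of GRCh38 at chr11:65506009-65506131, within its single exon of 8708 bases. Capitals mark the U-rich motifs of 10 and 11 bases and the unbroken run of 13 A in the A-rich tract. These start at bases 8268, 8310 and 8337 of the transcript. The bases that follow the run of A are not marked, so the capitals need not cover the whole tract.
MALAT1: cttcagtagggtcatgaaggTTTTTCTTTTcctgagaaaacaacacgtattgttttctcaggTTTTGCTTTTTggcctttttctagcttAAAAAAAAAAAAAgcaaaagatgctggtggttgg
The library kit (TruSeq RNA) selects polyadenylated RNA, so the level of MALAT1 here is its level after that selection. The long isoform of NEAT1 ends in a similar way.

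Transcripts of snoRNA host genes often begin with a C followed by a run of pyrimidines, the terminal oligopyrimidine start that ties translation to growth signals. The 50 bases before and the 50 bases from the annotated start site are shown for SNHG1 (GRCh38.p14, chr11:62855836-62855935, minus strand), SNHG5 (chr6:85678684-85678783, minus strand) and GAS5 (chr1:173868996-173869095, minus strand), from RefSeq and written along the transcribed strand. Capitals mark the C at the start site with the pyrimidines that follow it without a break.
SNHG1: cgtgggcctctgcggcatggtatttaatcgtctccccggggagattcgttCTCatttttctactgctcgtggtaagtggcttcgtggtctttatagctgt
SNHG5: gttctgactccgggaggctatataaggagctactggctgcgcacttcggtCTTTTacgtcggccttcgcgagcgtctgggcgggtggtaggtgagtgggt
GAS5: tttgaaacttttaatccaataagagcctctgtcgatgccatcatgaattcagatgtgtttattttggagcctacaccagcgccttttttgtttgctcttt
A C and at least 4 further pyrimidines stood at the start site of SNHG5, as in 1429 of 35116 RefSeq promoter windows (4.07%). Of 18 other snoRNA host genes, 15 had a window, and 5 of these had such a start. The run at the SNHG1 start held 3 bases, and the GAS5 window did not begin with a C at the annotated site. The annotated starts of these genes differ between RefSeq and GENCODE, by 163 bases in the case of GAS5, so a match depends on the site chosen.

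The window of DANCR is shown whole for its CCAAT boxes, the element bound by NF-Y. It spans 250 bases before and 50 bases from the start site (GRCh38.p14, chr4:52712144-52712443, plus strand), and capitals mark CCAAT or, on the other strand, ATTGG.
DANCR: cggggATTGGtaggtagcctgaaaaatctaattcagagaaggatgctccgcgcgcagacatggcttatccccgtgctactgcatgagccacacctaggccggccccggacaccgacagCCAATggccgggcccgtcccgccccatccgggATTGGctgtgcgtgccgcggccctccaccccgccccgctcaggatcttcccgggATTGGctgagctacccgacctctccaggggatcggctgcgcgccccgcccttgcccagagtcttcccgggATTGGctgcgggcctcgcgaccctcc
DANCR held 5 such boxes, and 4 or more were found in 0.991% of all windows, while 34.6% held at least 1. Among the other windows of 300 bases, that of GAS5 held 3, that of SNHG5 held 1, and those of SNHG1 and MALAT1 held none. CACGTG, the E-box read by MYC (7.26% of all windows), was in none of the 6 windows found for 5 of the genes. TATATAA (2.57% of all windows) was in the SNHG5 window alone among these 6. These matches describe the letters of the windows and do not show binding.

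The 9 listed RNAs ranged from above 200 RPKM to below 1 RPKM, with MALAT1, GAS5 and PVT1 at the same place in the order of each library. MALAT1 was the most abundant of them and GAS5 the next. PVT1 lay below the middle group of SNHG1, DANCR, SNHG5 and NEAT1, and HOTAIR and UCA1 were near the limit of detection. The interval of each of MALAT1, GAS5 and PVT1 was separate from those of its neighbours in this order in every library. For GAS5 and its neighbour SNHG5 in subclone 1, this holds for the 524 bases assigned to SNHG5. In the middle group of the parent, each neighbouring pair had overlapping intervals (SNHG1, DANCR, SNHG5 and NEAT1, from high to low). SNHG5 came first of the group in both subclones, and in subclone 1 its interval lay just above that of SNHG1, the next in order, for the 524 bases assigned to SNHG5. In both subclones the remaining neighbours of the group overlapped, as did HOTAIR and UCA1 in all 3 libraries.

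**Figure D1:**
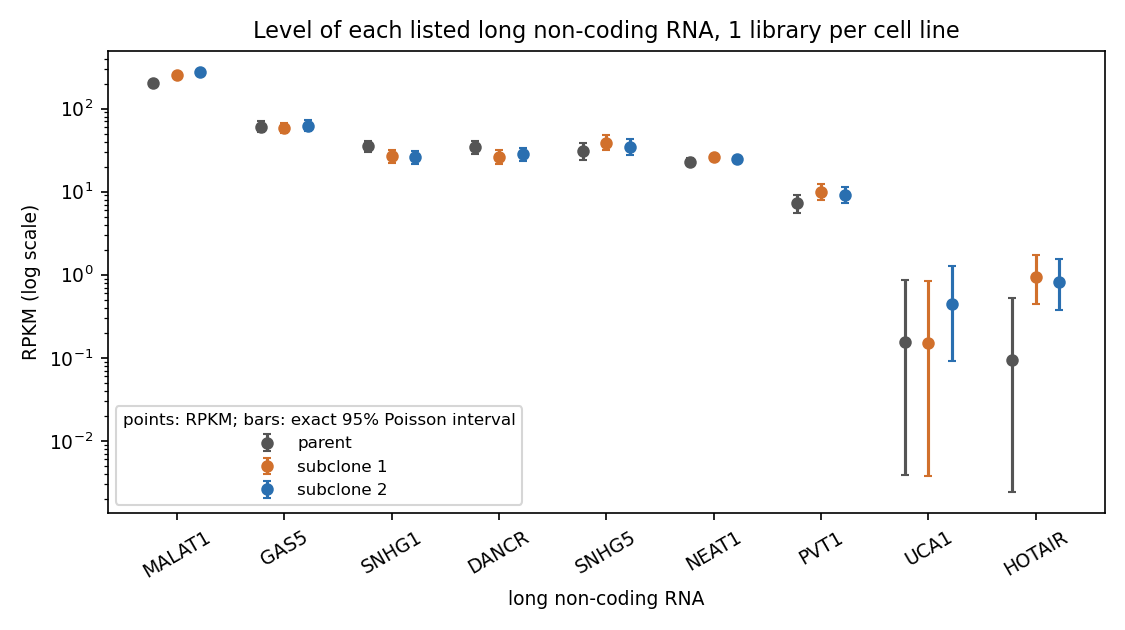
RPKM on a log scale of the 9 listed long non-coding RNAs in the parent, subclone 1 and subclone 2, 1 library each, with exact 95% Poisson intervals as bars. MALAT1 stands highest, at 205 to 272 RPKM, SNHG1, DANCR, SNHG5 and NEAT1 lie between 23.0 and 38.9, and the intervals of UCA1 and HOTAIR, with 1 to 10 reads, are far wider than those of the others.

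Among the 9 RNAs, 1 stood 2-fold or more above the parent in subclone 1 and 0 stood 2-fold or more below it, beside 4.9% and 1.82% of the background genes. In subclone 2, 2 stood this far above the parent and 0 below it (background 5.33% and 2.16%). Between the subclones, 1 was at least 2-fold higher in subclone 2 and 0 lower (1.42% and 1.39%). The RNAs past 2-fold were HOTAIR against the parent in both subclones and UCA1 wherever subclone 2 was compared, and both have a mean RPKM below 1, outside the background. With a pseudocount of 1 in place of 0.1, 0 of the 9 were past 2-fold in any comparison. None of the 7 RNAs with a mean RPKM of at least 1 was 2-fold apart between any 2 libraries, and their folds over the parent lay between 0.760 and 1.38 for subclone 1 and between 0.742 and 1.33 for subclone 2. The median log2 ratio of the 9 RNAs was 0.18 in both subclones over the parent and -0.04 in subclone 2 over subclone 1, where the medians of the background were 0.00, 0.04 and 0.03.

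Counting intervals resolved smaller differences. Over the parent, the interval of the fold lay above 1 for MALAT1 and HOTAIR and below 1 for SNHG1 and DANCR in subclone 1 (20.1% of background genes above and 19.2% below). In subclone 2 it lay above 1 for MALAT1 and HOTAIR and below 1 for SNHG1 alone (22.9% and 18.1%). HOTAIR is outside the background that these shares cover. Among the 7 RNAs with a mean RPKM of at least 1, 1 lay above and 2 below in subclone 1, and 1 and 1 in subclone 2. Between the subclones only MALAT1 had an interval apart from 1, and it was higher in subclone 2 (11.6% above and 8.47% below). An interval narrows with the reads of a gene, so these counts follow abundance as well as the size of the difference.

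**Figure D2:**
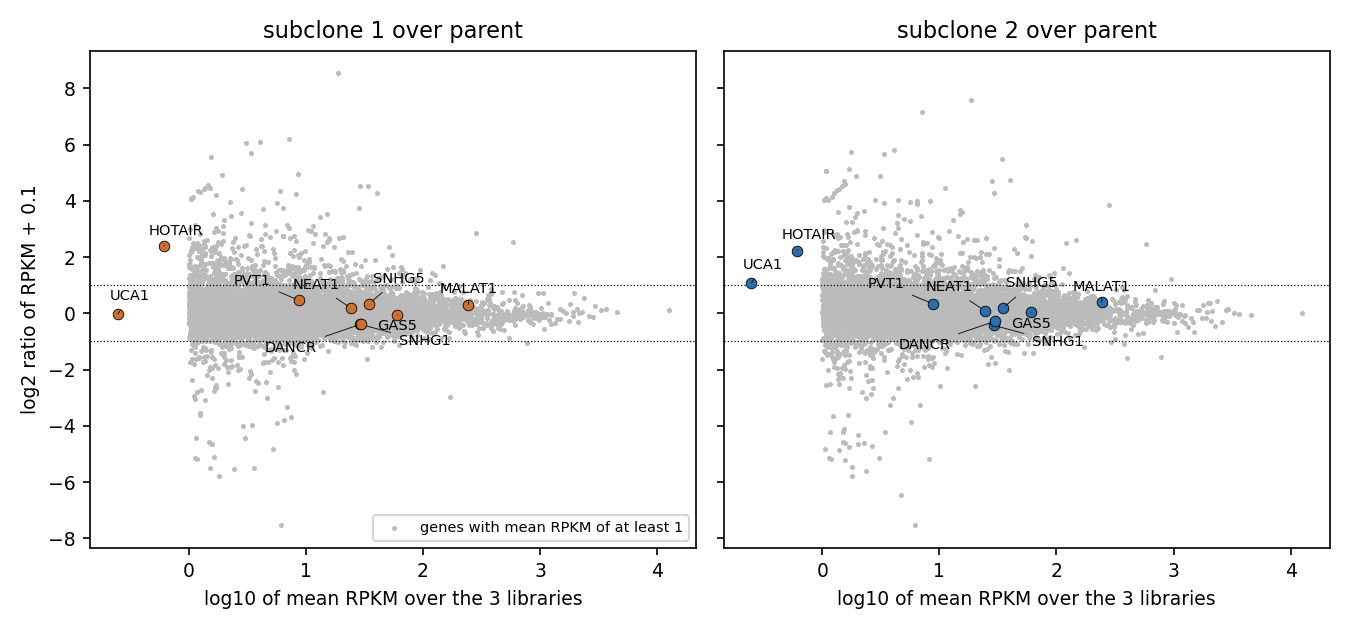
The log2 ratio of RPKM + 0.1 over the parent against the log10 of the mean RPKM, for subclone 1 (left) and subclone 2 (right), 1 library each. Grey points are the 11370 background genes, coloured points the 9 listed long non-coding RNAs, and dotted lines mark 2-fold. Those with a mean RPKM of at least 1 lie inside the dotted lines, and HOTAIR lies above the upper line in both panels.

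MALAT1 (Entrez 378938), the speckle RNA, took most of the reads of the group. It had an RPKM of 205 in the parent, against 254 and 272 in subclones 1 and 2, from 8023, 10201 and 11209 reads. The parent was lowest and subclone 2 highest, and the 3 Poisson intervals did not overlap. Its fold over the parent was 1.24 in subclone 1 (interval 1.20 to 1.28) and 1.33 in subclone 2 (1.29 to 1.37). Subclone 2 was 1.07-fold above subclone 1 (1.04 to 1.10). Its log2 ratios over the parent, 0.31 and 0.41, stood at percentiles 76.2 and 80.0 of the background, so differences of this size were common among all genes. Of the library total recovered from the RPKM, MALAT1 held 0.179% in the parent, against 0.221% and 0.237% in subclones 1 and 2. Its reads were 88.8%, 90.6% and 91.4% of those of the 9 RNAs. In the list of 12 nuclear speckle splicing factors, 0 had intervals above and 8 below the parent in each subclone (background 20.1% and 19.2% for subclone 1, 22.9% and 18.1% for subclone 2), with median log2 ratios of -0.26 and -0.26. The most abundant by mean, SRSF3, was at an RPKM of 78.7, 68.6 and 66.8 in the parent, subclone 1 and subclone 2, and SRRM2 at 70.5, 59.8 and 58.1. The list thus lay on the other side of the parent from MALAT1 under every scaling tried. SLC25A45, the next listed gene before NEAT1, was at 1.56, 1.04 and 1.85.

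NEAT1 (Entrez 283131), the paraspeckle scaffold, lies on the plus strand at chr11:65422774-65445540 (GENCODE, GRCh38), 52198 bases before MALAT1 in RefSeq. Its RPKM was 23.0 in the parent, against 25.9 and 24.5 in subclones 1 and 2, from 387, 449 and 434 reads. These levels had overlapping intervals. The folds over the parent were 1.13 (0.984 to 1.30) and 1.07 (0.927 to 1.23), and both intervals included 1. The length behind its RPKM was 3756 bases, close to that of the short isoform, while the gene spans 22743 bases. The long isoform that builds paraspeckles was therefore not measured apart. The ratio of MALAT1 to NEAT1 within a library, which no scaling of the libraries can alter, was 8.94 in the parent, against 9.80 and 11.1 in subclones 1 and 2. Over the parent this ratio was 1.10-fold in subclone 1 (0.951 to 1.26) and 1.25-fold in subclone 2 (1.08 to 1.44). Of 14 paraspeckle proteins, 13 had whole reads, and 0 had intervals above and 9 below the parent in subclone 1, and 0 and 6 in subclone 2 (background 20.1% and 19.2%, then 22.9% and 18.1%). Their median log2 ratios were -0.23 and -0.17. NONO, a core paraspeckle protein, was at an RPKM of 320 in the parent, against 269 and 271 in subclones 1 and 2, and HNRNPK at 259, 240 and 248.

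The folds of the 4 snoRNA hosts over the parent lay on both sides of 1. GAS5 (Entrez 60674; chr1:173863900-173868882, minus strand, GENCODE, GRCh38), known as a growth arrest transcript and as a decoy of the glucocorticoid receptor, had an RPKM of 60.6 in the parent, against 58.6 and 62.4 in subclones 1 and 2, from 177, 176 and 192 reads. The 3 levels overlapped, with folds over the parent of 0.968 (0.781 to 1.20) and 1.03 (0.836 to 1.27). SNHG1 (Entrez 23642; chr11:62851988-62855914, minus strand), host of box C/D snoRNAs, had an RPKM of 35.0, 26.6 and 25.9 in the same order, from 178, 139 and 139 reads. It was lower in both subclones than in the parent, at 0.760-fold (0.605 to 0.955) and 0.742-fold (0.590 to 0.931), percentiles 14.4 and 12.2 of the background, and the subclones overlapped. SNHG5 (Entrez 387066; chr6:85660950-85678748, minus strand), which hosts the snoRNAs of the U50 family, had an RPKM of 30.6, 38.9 and 34.7, from 72, 94 and 86 reads. The parent was lowest, but the folds of 1.27 (0.925 to 1.75) and 1.13 (0.820 to 1.57) included 1. DANCR (chr4:52712404-52720351, plus strand), named for its block on differentiation, had an RPKM of 34.4, 26.4 and 28.2, from 132, 104 and 114 reads. The parent was highest, at a fold of 0.767 in subclone 1 (0.588 to 1.00) and 0.820 in subclone 2 (0.633 to 1.06). The first of these intervals ended just below 1, and it included 1 when the libraries were divided by their upper quartile.

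**Figure D3:**
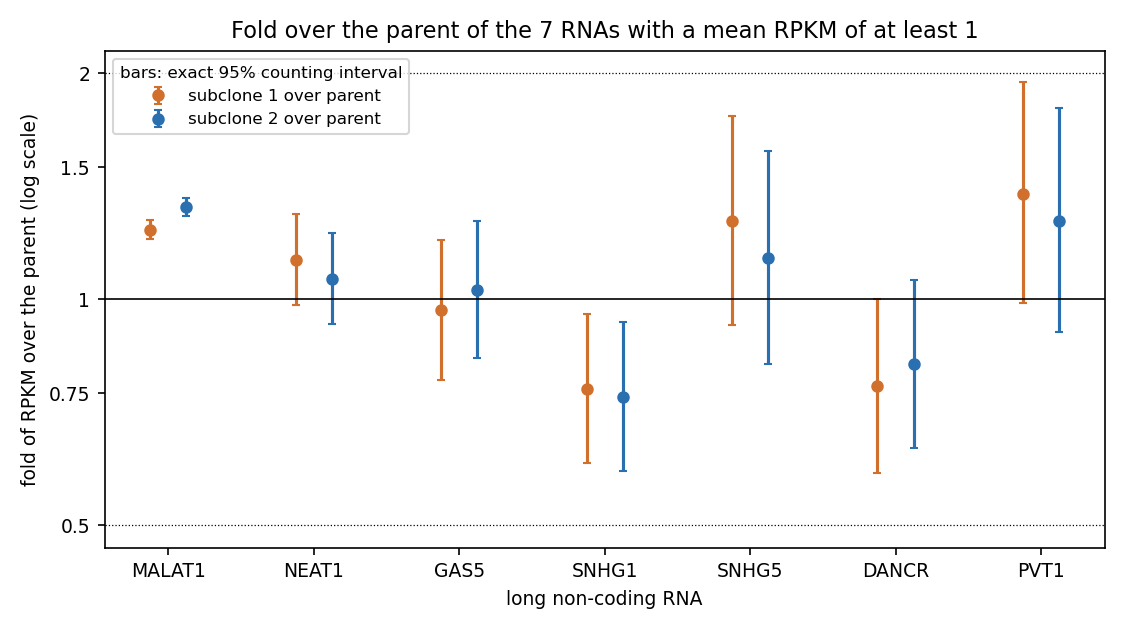
Fold of RPKM over the parent on a log scale, for the 7 long non-coding RNAs with a mean RPKM of at least 1, in subclone 1 and subclone 2 (1 library each). Bars are exact 95% counting intervals, the solid line marks no difference and dotted lines mark 2-fold. MALAT1 lies above 1 and SNHG1 below 1 in both subclones with bars clear of the line, and the bars of NEAT1, GAS5, SNHG5 and PVT1 cross it.

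Ratios within a library set these hosts against each other without any scaling. As for MALAT1 over NEAT1, the pairs were chosen after their values were seen. The RPKM of SNHG5 over that of SNHG1 was 0.875 in the parent, against 1.46 and 1.34 in subclones 1 and 2. The intervals of the levels of SNHG5 and SNHG1 were separate in subclone 1 only. Over the parent the ratio was 1.67-fold in subclone 1 (1.12 to 2.49) and 1.53-fold in subclone 2 (1.02 to 2.29). These intervals hold for the 524 bases assigned to SNHG5. The RPKM also allowed a length of 262 bases with 36, 47 and 43 reads, which would extend the intervals of these ratios to 0.998 to 2.81 and 0.905 to 2.59, so that both include 1, and the interval of its own fold over the parent to 0.806 to 2.02 in subclone 1 and 0.712 to 1.82 in subclone 2. GAS5 over SNHG1 stood at 1.73, 2.21 and 2.41, a change over the parent of 1.27-fold (0.928 to 1.75) and 1.39-fold (1.02 to 1.90). SNHG1 over DANCR hardly moved, at 1.02, 1.01 and 0.919, and the intervals of its change, 0.696 to 1.41 and 0.638 to 1.28, included 1.

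The snoRNAs themselves were hardly sampled. The spans of the 4 hosts hold 23 snoRNA genes in RefSeq, 11 in GAS5, 9 in SNHG1, 2 in SNHG5 and 1 in DANCR, and 6 of them were listed in any library. Each of these 6 was listed in 1 library only. In GAS5, SNORD47 had an RPKM of 2.89 in the parent, SNORD76 one of 2.68 in subclone 1 and SNORD79 one of 2.61 in subclone 2. No whole reads were assigned to these snoRNAs of GAS5. SNORD22 and SNORD26 in SNHG1 and SNORA26 in DANCR had 1 read each, which gave an RPKM of 1.72, 2.82 and 1.78. For genes this short, an RPKM of that size can thus be a single read. Excised snoRNAs are short and without a poly(A) tail, so this kind of library is not made to count them.

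Of 18 other snoRNA host genes, 15 were listed, all with a mean RPKM of at least 1, and 14 of these had whole reads. Over the parent, 0 had intervals above and 2 below in subclone 1, and 2 above and 2 below in subclone 2 (background 20.1% and 19.2%, then 22.9% and 18.1%). None was 2-fold apart from the parent. Their median log2 ratio was 0.08 in both subclones, and it turned to -0.05 in subclone 1 when the libraries were divided by ACTB. The most abundant by mean were SNHG6, at an RPKM of 94.9 in the parent, against 109 and 112 in subclones 1 and 2, and ZFAS1, at 52.9, 55.9 and 65.6, which was 1.24-fold of the parent in subclone 2 (1.05 to 1.47). The intervals of SNHG6 included 1 in both subclones (0.947 to 1.39 and 0.977 to 1.43), as did that of ZFAS1 in subclone 1 (0.885 to 1.27). SNHG16, the next, was lower than the parent in both, at 62.7, 44.6 and 54.0, or 0.712-fold (0.635 to 0.798) and 0.861-fold (0.773 to 0.959). SNHG1, at -0.39 and -0.43, lay within the range of these hosts, which spanned -0.66 to 0.51 for subclone 1 and -0.89 to 0.67 for subclone 2. Among the 8 proteins of the snoRNA particles, 0 had intervals above and 6 below the parent in subclone 1, and 0 and 5 in subclone 2 (background again 20.1% and 19.2%, then 22.9% and 18.1%), with medians of -0.35 and -0.30. Fibrillarin (FBL), the methyltransferase of box C/D particles, was at an RPKM of 263, 231 and 226, and NOP10, a core protein of H/ACA particles, at 117, 124 and 116, with intervals that included 1. The spliced RNAs of several hosts are turned over by nonsense-mediated decay, and of 10 factors of that pathway (same background) 1 lay above and 1 below the parent in subclone 1, and 2 and 1 in subclone 2. Their medians were -0.07 and -0.04, and the second turned to 0.02 when divided by GAPDH. SMG5 was at an RPKM of 79.3, 82.5 and 85.3, and UPF3B at 26.6, 24.7 and 27.9.

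Of the genes around the hosts, some had intervals apart from 1. WDR74, 10169 bases from SNHG1, was at an RPKM of 32.8 in the parent, against 18.2 and 23.5 in subclones 1 and 2, with folds over the parent of 0.554 (0.437 to 0.699) and 0.717 (0.578 to 0.888). SLC3A2, an amino acid transporter subunit that starts 224 bases from SNHG1, was at 96.5, 86.6 and 86.2, or 0.897-fold (0.820 to 0.981) and 0.893-fold (0.817 to 0.976). SNHG1 and both its neighbours were thus lower in the subclones. SYNCRIP, beside SNHG5, was at 49.1, 37.4 and 38.5, with intervals below 1 in both subclones (0.707 to 0.820 and 0.728 to 0.843). ZNF292, the next listed gene on the other side, lay 1476832 bases away and was at 3.97, 4.92 and 4.65. Its interval lay above 1 in subclone 1 (1.01 to 1.51) and included 1 in subclone 2 (0.958 to 1.43). USP46 and SCFD2 beside DANCR were at 2.29, 1.37 and 1.79 and at 3.89, 2.57 and 3.50. The interval of USP46 lay below 1 in subclone 1 (0.414 to 0.858) and included 1 in subclone 2, and those of SCFD2 included 1 in both. Among the genes that overlap GAS5, its antisense gene GAS5-AS1 had 1, 6 and 5 reads and ZBTB37 had 5, 1 and 4, with intervals that included 1. The kit does not mark strand, so reads of GAS5 and these partners cannot be told apart where they overlap.

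GAS5 binds the glucocorticoid receptor, and the receptor and its known targets were followed as a list. Of 8 genes in the list of the receptor and its targets, 7 were listed, and 5 had intervals above and 1 below the parent in subclone 1, and 4 and 1 in subclone 2 (background 20.1% and 19.2%, then 22.9% and 18.1%). The intervals of PER1 included 1 in both subclones (0.503 to 1.73 and 0.905 to 2.68), as did that of DUSP1 in subclone 2 (0.978 to 1.77). The median log2 ratios of the list were 0.73 and 0.58, above 0 under every scaling tried. The kinase SGK1 was at an RPKM of 0.625 in the parent, against 4.94 and 4.22 in subclones 1 and 2, and the transcription factor KLF9 at 0.171, 1.83 and 1.75. Both were more than 2-fold above the parent, with log2 ratios of 2.80 and 2.58 for SGK1 and 2.83 and 2.77 for KLF9. Their parental levels rested on 9 reads for SGK1 and 4 for KLF9, so the log2 ratios of KLF9 depend on the pseudocount. The folds over the parent were 7.90 (3.94 to 18.0) and 6.76 (3.35 to 15.4) for SGK1. Those of KLF9 were 10.7 (3.90 to 41.0) and 10.2 (3.71 to 39.2). FKBP5, another target of the receptor, was the gene below the parent, with log2 ratios of -0.71 and -0.70. GAS5 itself was at -0.046 and 0.043.

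PVT1 (Entrez 5820) lies on the plus strand of chromosome 8 (chr8:127794533-128101253, GENCODE, GRCh38), 51573 bases beyond MYC, and is often gained together with it in carcinomas. Its RPKM was 7.20 in the parent, against 9.95 and 9.16 in subclones 1 and 2, from 62, 88 and 83 reads. The parent was lowest, while the folds of 1.38 (0.987 to 1.94) and 1.27 (0.904 to 1.80) included 1. With the libraries divided by their upper quartile the first became 1.40 (1.002 to 1.97), just apart from 1. MYC, the transcription factor of growth and ribosome production, was at an RPKM of 88.3, 54.7 and 54.4, which was 0.620-fold (0.558 to 0.687) and 0.617-fold (0.556 to 0.683) of the parent. The RPKM of PVT1 over that of MYC was 0.0816 in the parent, against 0.182 and 0.168 in subclones 1 and 2. Within the library, and so free of scaling, this ratio, a pair also chosen after its values were seen, stood above the parental one by a factor of 2.23 in subclone 1 (1.57 to 3.19) and 2.06 in subclone 2 (1.44 to 2.96). The subclones had overlapping ratios (0.925-fold, 0.662 to 1.29). GSDMC, the next listed gene on the far side of PVT1 and 1604179 bases from it, had 4, 4 and 3 reads.

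HOTAIR (Entrez 100124700), which binds the PRC2 and LSD1 complexes and is transcribed from the minus strand of the HOXC cluster at chr12:53962308-53974956 (GENCODE, GRCh38), was nearly undetected in the parent. It had 1 read in the parent, against 10 and 9 in subclones 1 and 2, or an RPKM of 0.0953, 0.928 and 0.815. Both subclones lay above the parent, although the Poisson intervals of all 3 levels overlapped. The folds over the parent were 9.74 (1.39 to 423) and 8.55 (1.18 to 375), and the fold between the subclones was 0.878 (0.316 to 2.40). Its log2 ratios of 2.40 and 2.23 depended on the pseudocount and were 0.82 and 0.73 with a pseudocount of 1. HOXC11, which overlaps HOTAIR on the other strand, had 2, 3 and 4 reads, and the strand of the reads was not recorded. CALCOCO1, the nearest listed gene on the other side, was at an RPKM of 9.29 in the parent and 12.3 in subclone 2, with subclone 1 between them. HOXC9, named after its values were seen as the HOXC gene with most reads, had 16, 18 and 19. Among the HOXC genes with fewer reads, HOXC6 had 4, 5 and 16 and HOXC8 had 5, 6 and 10. Of 13 genes of the PRC2 and LSD1 complexes, 2 had intervals above and 4 below the parent in subclone 1, and 1 and 3 in subclone 2, beside 20.1% and 19.2% and then 22.9% and 18.1% of the background, with medians of -0.11 and -0.01, the latter of which turned to 0.05 when divided by GAPDH. RBBP7 was at an RPKM of 50.3, 44.0 and 49.4, and KDM1A, the demethylase LSD1, at 46.2, 38.2 and 39.6.

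UCA1 (Entrez 652995; chr19:15828206-15836326, plus strand, GENCODE, GRCh38) had 1 read in the parent, against 1 and 3 in subclones 1 and 2, or an RPKM of 0.155, 0.151 and 0.441. The fold of subclone 2 over the parent was 2.85 with an interval of 0.229 to 150, so a difference was not detectable at this depth. CYP4F11, the next listed gene beyond it, was at an RPKM of 25.7, 18.1 and 16.5, and the pseudogene CYP4F24P before it was listed in subclone 2 only, at 0.0857. HULC (Entrez 728655; chr6:8652269-8653856, RefSeq, GRCh38.p14), an RNA highly upregulated in many liver carcinomas, was listed in none of the 3 libraries. A count of 0 allows up to 3 reads (a one-sided limit, unlike the intervals above), which over its RefSeq span of 1588 bases is an RPKM of 0.421 in the parent, against 0.410 and 0.400 in subclones 1 and 2. The limit is higher for a shorter spliced RNA, and it holds only if HULC was in the annotation that was counted, which is not given in the sources used here. Its nearest listed neighbours, SLC35B3 at 216702 bases and TFAP2A at 1742821 bases, were at an RPKM of 9.86, 12.1 and 12.4 and of 3.63, 4.56 and 4.56. Of 5 RNA-binding and transcription factors linked to HULC, 2 had intervals above and 0 below the parent in subclone 1, and 1 and 0 in subclone 2 (same background as above). Their medians of 0.09 and -0.01 changed sign with the scaling. Those above were IGF2BP2 and, in subclone 1 only, IGF2BP3, while the intervals of IGF2BP1 included 1 (0.964 to 1.18 and 0.836 to 1.03). IGF2BP3, an RNA-binding protein, was at an RPKM of 41.6, 47.3 and 45.1, and CNOT1, the scaffold of a deadenylase complex, at 37.6, 35.4 and 37.2.

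**Figure D4:**
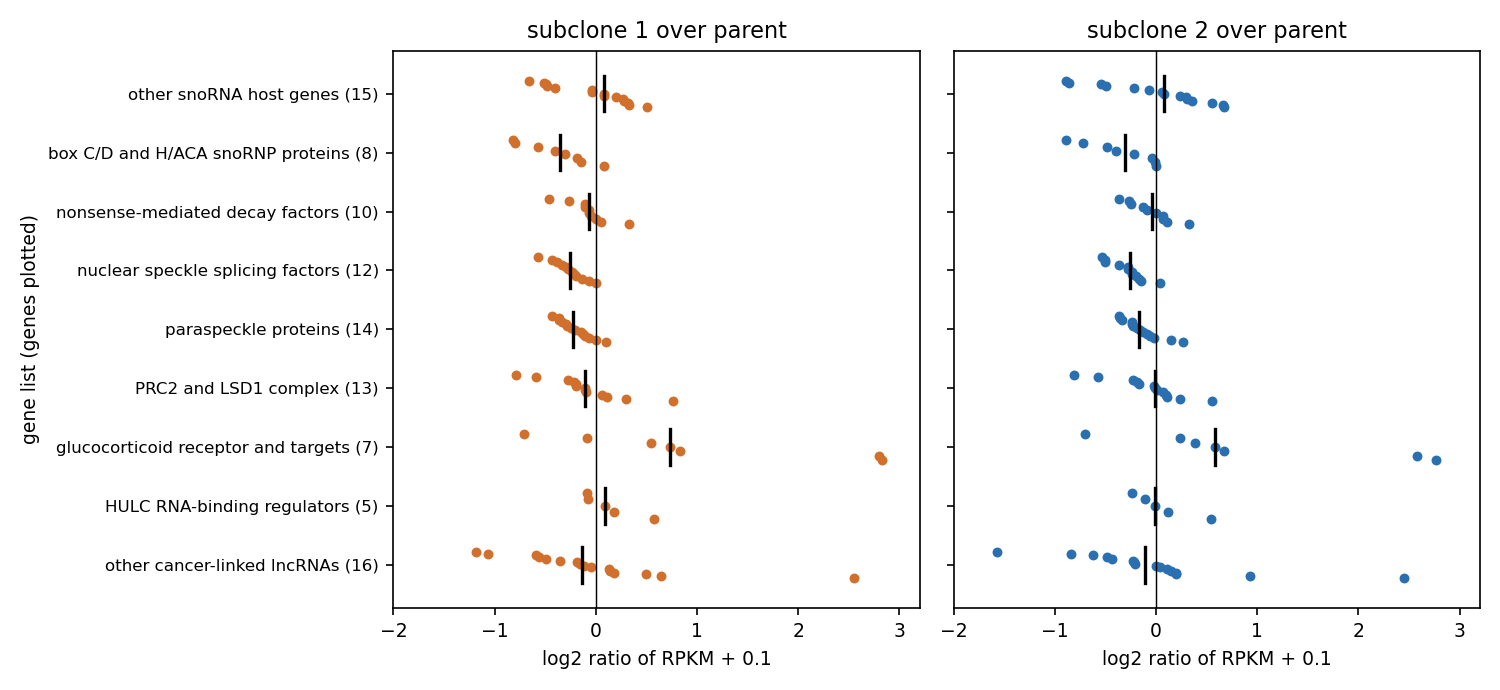
The log2 ratio of RPKM + 0.1 over the parent for each gene with a mean RPKM of at least 1 in 9 gene lists, in subclone 1 (left) and subclone 2 (right), 1 library each, with the number of genes plotted in brackets. Points are genes, spread in height only for legibility, and the black bar is the median of the list. The medians of the speckle factors lie at -0.26 in both panels and those of the glucocorticoid list at 0.73 and 0.58.

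Of 33 other cancer-linked long non-coding RNAs, 27 were listed and 16 had a mean RPKM of at least 1. In subclone 1, 1 of these was at least 2-fold above and 2 below the parent, and in subclone 2, 1 above and 1 below (background 4.9% and 1.82%, then 5.33% and 2.16%). H19, an imprinted RNA of the fetal liver, was at an RPKM of 142 in the parent, against 832 and 778 in subclones 1 and 2. BCYRN1 was at 1285, 613 and 434, and as it derives from an Alu element its count may hold reads of other Alu copies. ZEB1-AS1 was at 1.90, 0.778 and 1.33, and its interval lay below 1 in subclone 1 (0.155 to 0.981) and included 1 in subclone 2 (0.325 to 1.47).

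The likeness of other genes to each RNA was measured as the Euclidean distance of centred log2 levels over the 3 libraries. With 3 points a close match is easy to find, and 372 of the other 11369 background genes lay within 0.1 of PVT1 and 1348 within 0.1 of GAS5, the lowest and highest numbers among the 7 RNAs. The nearest to MALAT1 were TMEM135, MPST and TMEM149, at distances of 0.0084, 0.0091 and 0.011. The nearest to NEAT1 were BCL9, MLXIP and RAGE, to PVT1 PCDHB14, HMGN5 and RAB22A, and to GAS5 YIF1A, KCNAB2 and ZNF274. NUDCD1, PTAR1 and HARS were nearest to SNHG1, TRPM7, SHISA4 and CAPG to SNHG5, and SF1, CCT3 and ZSCAN20 to DANCR.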

How the data were processed

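Messenger RNA of 3 cell lines (parent, subclone 1, subclone 2; 1 library each) was sequenced after extraction with Trizol and library preparation with an Illumina TruSeq RNA kit. The authors deposited RPKM per gene with Entrez number and symbol, for genes above 0 only, and the submitters' processing notes name the build hg19. The aligner, counting tool, annotation and handling of strand and shared reads are not given in the sources used here. Genes not listed in a library were taken as 0 there.

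Whole reads were recovered from the RPKM. The library totals (4488825, 4609696 and 4725150 reads) were derived from genes whose reads were equal between the parent and subclone 1 (653) or subclone 2 (625) and from the common step of 1528 genes, 89.7% of which fell on it. A gene's smallest whole length was multiplied where needed to come near a GENCODE 29 transcript length, and 94.8% of the 11370 background genes (mean RPKM of at least 1) received reads. The steps were tested on simulated data, where the library totals were recovered exactly. Of the genes resolved there, 93.7% received the simulated reads, so some recovered reads can be wrong. The simulation used only genes and lengths that these steps had already resolved, which favours recovery. Ratios were log2((RPKM + 0.1)/(RPKM + 0.1)), folds were ratios of RPKM, and intervals were exact at 95% (Poisson, Clopper-Pearson, and the conditional odds ratio for ratios within a library). Reads served for intervals only, and no test was made. PCR reads without molecular identifiers are not independent molecules, so intervals and limits (3 reads for a count of 0) cover counting error only.

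The members and the gene lists were chosen with earlier results of these data known. Named genes were the members, the nearest listed gene on each side of each, up to 4 genes per list that were at least 2-fold from the parent in a subclone (or the 2 most abundant by mean RPKM), and the 3 background genes nearest to each member in centred log2 levels. A neighbouring gene is not reported here. Further genes of the lists were named as markers or for their direction after their values were seen (GPC3, APOA1, TTR, SERPINA1, KRT8, ALB, CD68, PTPRC, FKBP5, PER1, DUSP1, SNHG16, HOXC6, HOXC8, HOXC9, IGF2BP1, IGF2BP2). Gene places, lengths and sequences came from GENCODE 29 (GRCh38) and RefSeq (GRCh38.p14), another build than hg19, so that coordinates place the genes but not the reads. RefSeq held 99.4% of the gene numbers, and promoter windows were found for 5 members. Alternatives were pseudocounts of 0.01 and 1, rescaling to the same sum, median centring, division by the upper quartile, ACTB or GAPDH, filters of none and of a mean RPKM of 5, and 1.5-fold. Python 3.11.15, numpy 2.4.6, pandas 2.3.3, scipy 1.17.1 and matplotlib 3.10.9 were used.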

Additional observations from a re-analysis of the deposited data

Results flagged for a closer look

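The log2 ratios of GAS5 and UCA1 over the parent had opposite signs in the 2 subclones. For GAS5 the ratio was -0.046 in subclone 1 and 0.043 in subclone 2. For UCA1, with 1 to 3 reads per library, it was -0.023 in subclone 1 and 1.09 in subclone 2. The difference between the subclones was not tested, as each is 1 library, and the counting intervals of all 4 folds included 1.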

How the results depend on the processing

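No paired analysis was possible because a single library was made per cell line, and none could be left out for the same reason. Of 192 log2 ratios of the 9 RNAs under the alternatives, 187 stayed within their counting interval, 5 moved beyond it and 0 of the called ones changed sign. The 187 include ratios of SNHG5 at its other length, which equal the deposited ones and could not move. The intervals of HOTAIR and UCA1 are so wide that few shifts could leave them. HOTAIR in subclone 1 over the parent stayed within its interval at 0.82 with a pseudocount of 1, against 2.40 with 0.1. The 5 that moved belong to MALAT1, whose interval is narrow. Over the parent its log2 ratio in subclone 1 was 0.18 with division by ACTB and 0.25 by GAPDH (0.31 as deposited), and in subclone 2 it was 0.47 by GAPDH (0.41). In subclone 2 over subclone 1 it was 0.23 by ACTB and 0.22 by GAPDH (0.10). Division by ACTB moved the median of all background genes by -0.13 in subclone 1 over the parent and by 0.12 in subclone 2 over subclone 1, and division by GAPDH moved the latter by 0.12. With a pseudocount of 1, 0 RNAs were at least 2-fold higher in subclone 1 over the parent, in subclone 2 over the parent and in subclone 2 over subclone 1, where 1, 2 and 1 were counted. With division by the upper quartile, chosen after seeing the data, 1 and not 2 RNAs had an interval below 1 in subclone 1 over the parent, as DANCR left, and 3 and not 2 had one above 1, as PVT1 was added.

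The shares of background genes at least 2-fold higher and lower, 4.9% and 1.82% in subclone 1 over the parent, became 3.05% and 1.03% with a pseudocount of 1, 9.43% and 5.47% without a filter, 2.84% and 0.865% at a mean RPKM of at least 5, and 11.6% and 7.46% at 1.5-fold, and the lower share became 2.88% by ACTB. For subclone 2 over the parent (5.33% and 2.16%) they became 3.34% and 1.32%, 9.62% and 5.83%, 3.08% and 1.13%, and 12.7% and 7.3% under the same 4 settings. For subclone 2 over subclone 1 (1.42% and 1.39%) they became 0.704% and 0.677%, 5.21% and 5.59%, 0.524% and 0.56%, and 4.75% and 4.11%. The shares with an interval above and below 1, chosen for rescaling after seeing the data, became 13.1% and 30.1% by ACTB in subclone 1 over the parent (20.1% and 19.2%), and 27.4% and 4.22% by ACTB or 25.9% and 4.43% by GAPDH in subclone 2 over subclone 1 (11.6% and 8.47%). With 0 to 10 reads per library, the depth limits what can be said of UCA1, HOTAIR and HULC.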
